A study of Mus musculus with 120 samples.

Results

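The *Trim12*, *Trim30* and *Trim34* genes are a run of TRIM5-like genes on mouse chromosome 7, and 8 of them were followed here: *Trim12a*, *Trim12c*, *Trim30a*, *Trim30b*, *Trim30c*, *Trim30d*, *Trim34a* and *Trim34b*. They were taken by gene name from the 55487 genes listed in both count tables, of which 41759 had a count in some sample and 23387 passed the low-count filter of the strain comparison, all 8 of these included. The genes were chosen by their measured levels in NOD against NOR in these same samples, so values that set NOD against NOR describe the genes and carry no test. In GRCm38 the genes span chr7:104244457-104507849, a stretch of 263393 bases in the order *Trim34a*, *Trim12a*, *Trim34b*, *Trim12c*, *Trim30b*, *Trim30c*, *Trim30a* and *Trim30d*, with *Trim5* lying between *Trim34a* and *Trim12a*. *Trim34a* and *Trim34b* are read from the plus strand and the other 6 from the minus strand, and all 8 are annotated as protein coding.

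The samples were biopsies of the immunological niche (IN), a porous poly(ε-caprolactone) scaffold placed under the skin of female mice, which fills with host cells and was removed and replaced repeatedly. NOD/ShiLtJ (NOD) mice develop autoimmune diabetes spontaneously, and NOR/LtJ (NOR) mice are a diabetes-resistant strain bred largely from NOD. NOD mice were divided by outcome into progressors, which became hyperglycemic, and nonprogressors, which did not. Bulk RNA was sequenced from 120 INs in 2 batches. No transgene is given for either strain, and every mouse bore scaffolds. The analgesic carprofen and isoflurane anesthesia were used at implantation and at each removal in all groups. The 23 NOR samples came from 5 mice at 6, 10, 14, 18 or 22 weeks of age, all in batch 1. The 39 nonprogressor samples came from 11 numbered mice, with 4 mice at each of the same 5 ages in batch 1, 7 mice at 6 weeks and 6 mice at 14 weeks in batch 2, and 6 samples labelled by days after implantation. The 58 progressor samples came from 10 mice at 6 weeks of age, at 7, 5, 3 and 1 weeks before onset and at onset. There were 5 mice per time in each batch, except that the 8 samples at 7 weeks before onset were all in batch 2. Among these 8 were samples of mice 1 to 4, whose other samples were in batch 1. Since the IN mixes cell types, fewer cells of a type and less RNA per cell cannot be told apart in any of the values that follow.

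TRIM proteins carry a RING finger that attaches ubiquitin, one or more B-boxes and a coiled coil, and most members of this cluster end in a SPRY domain that recognises targets. The cluster is the mouse counterpart of the primate locus that holds TRIM5, a factor that restricts retroviruses, and many of its genes are induced by interferons. Trim30a, the best studied of them, restrains signalling from Toll-like receptors to NF-κB and activation of the NLRP3 inflammasome, whereas Trim12c has been described as a partner of TRAF6 in interferon and NF-κB signalling.

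Promoter sequences of all 8 genes were matched by symbol in RefSeq (GRCm38.p6), with 9 entries because *Trim30a* has a pair of start sites. An interferon-response-like pattern, TTTCNNTTTC or its complement GAAANNGAAA (N, any base), searched on both strands as the only motif,, occurred in 6 of the 9 windows of 300 bases, against 3.44% of 32851 promoters of that length. It was present for *Trim12a*, *Trim12c*, *Trim34a*, *Trim30d* and both starts of *Trim30a*, and these letters were not in the windows of *Trim30b*, *Trim30c* and *Trim34b*. The *Trim30b* window (chr7:104358597-104358896) lies inside the gene as annotated (chr7:104355382-104369884, minus strand). The sequence at the annotated 5′ end of *Trim30b* was not searched. The 7 windows of 110 bases printed here (80 before and 30 after the start, 5′ to 3′, capitals marking the pattern) are those of the copies whose levels separated the strains and of the Trim30 copies that changed with time.
Trim12a (chr7:104315466-104315575, minus strand): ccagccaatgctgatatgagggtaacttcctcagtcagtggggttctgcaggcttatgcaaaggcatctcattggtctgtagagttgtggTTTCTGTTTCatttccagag
Trim12c (chr7:104353320-104353429, minus strand): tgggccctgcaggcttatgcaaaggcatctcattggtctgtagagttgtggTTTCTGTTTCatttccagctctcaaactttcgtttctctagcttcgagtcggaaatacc
Trim34a (chr7:104244377-104244486, plus strand): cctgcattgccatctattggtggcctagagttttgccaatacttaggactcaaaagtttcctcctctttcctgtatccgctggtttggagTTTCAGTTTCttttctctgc
Trim34b (chr7:104329391-104329500, plus strand): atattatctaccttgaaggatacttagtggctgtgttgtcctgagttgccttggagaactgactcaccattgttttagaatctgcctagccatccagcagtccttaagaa
Trim30a (chr7:104465164-104465273, minus strand): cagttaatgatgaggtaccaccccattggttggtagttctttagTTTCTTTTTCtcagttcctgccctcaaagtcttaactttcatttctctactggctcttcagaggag
Trim30c (chr7:104400749-104400858, minus strand): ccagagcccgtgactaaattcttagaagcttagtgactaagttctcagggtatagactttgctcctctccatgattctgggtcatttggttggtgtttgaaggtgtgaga
Trim30d (chr7:104507820-104507929, minus strand): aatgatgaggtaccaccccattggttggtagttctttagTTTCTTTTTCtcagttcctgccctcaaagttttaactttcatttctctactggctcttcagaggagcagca
The *Trim12a* and *Trim12c* windows shared an unbroken run of 63 bases that contains the pattern, and the *Trim30a* and *Trim30d* windows shared one of 69 bases that also contains it. The longest run common to *Trim34a* and *Trim34b* was 8 bases.

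Libraries of batch 1 held 4722396 to 56185434 counts and those of batch 2 held 29029239 to 43880986. In the 18-week library of NOR mouse 5, 85.7% of 8616431 counts belonged to 1 gene for ribosomal RNA, so that few remained for the cluster (3 for *Trim34a* and 9 for *Trim12a*). Levels are given as CPM, the counts scaled to library size after edgeR's TMM scaling, and as CPM per kilobase of the longest annotated transcript where genes are compared with one another. All 5 fibroblast markers, all 8 macrophage markers and all 3 general leukocyte markers that were listed had counts in the INs. Some transcript sequence is common to neighbouring copies. Of the 100-base stretches in their annotated transcripts, 39.0% of those of *Trim34a* and 30.5% of those of *Trim34b* also occur in another gene (21.0% of those of *Trim34a* in *Trim34b*), compared with 8.05% for *Trim12c*, 3.29% for *Trim12a*, 4.41% for *Trim30a*, 4.57% for *Trim30d* and 0 for *Trim30b* and *Trim30c*. For 50-base stretches the shares were 59.7% for *Trim34a*, 56.8% for *Trim34b*, 33.7% for *Trim12c*, 10.5% for *Trim12a* and at most 7.49% for the *Trim30* copies, and the read length is not given in the sources used here. The gene that shared most with each *Trim12* copy was *Trim5*. It held 7.02% of the 100-base and 24.2% of the 50-base stretches of *Trim12c*, and 2.00% and 5.04% of those of *Trim12a*. Reads of both strains were assigned to copies on the reference genome. How far the division between *Trim34a* and *Trim34b*, or among *Trim12a*, *Trim12c* and *Trim5*, depends on that was not tested.

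The first comparison set NOD against NOR within batch 1, taking the sum of all biopsies of a mouse as 1 library (5 NOR mice, 5 progressors and 4 nonprogressors). The 8 genes split by position. The 4 members at the *Trim34a* end of the cluster differed between the strains by more than 1 on the log2 scale and the mice of the strains did not overlap, whereas the 4 *Trim30* copies at the other end overlapped. Over the genome, 3.02% of the genes tested differed by more than 1 on the log2 scale and 4.96% had mice that did not overlap. These shares are given for scale only, because this contrast led to the choice of genes.

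*Trim12a* was expressed in NOR and close to absent in NOD. The 5 NOR mice held 16.1, 14.2, 13.9, 15.15 and 14.9 CPM. The 9 NOD mice had a lowest value of 0, a median of 0.0151 and a highest of 0.0344 CPM, which is 22 counts in all against 10000 in NOR. Every NOR mouse stood far above every NOD mouse, and the pooled ratio of NOR to NOD was 925.5 (95% interval 610.9 to 1477, covering counting error only). At the level of single biopsies, 35 of 51 NOD libraries in batch 1 and 34 of 46 in batch 2 had no count, and the highest NOD library had 4. All 23 NOR libraries had counts, from 9 to 890.

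*Trim12c*, the neighbouring copy, remained present in NOD at a lower level. The NOR mice held 12.35, 12, 12.1, 13.65 and 12 CPM and the NOD mice 2.46 to 3.18 CPM with a median of 2.95. The strains did not overlap, and the log2 difference (NOD minus NOR) was −2.10 ± 0.06 (SE). Taken as a single feature, *Trim12a* with *Trim12c* measured 26.0 to 28.8 CPM in NOR and 2.47 to 3.22 CPM in NOD, a log2 difference of −3.22 ± 0.06.

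The *Trim34* pair showed a reciprocal arrangement. *Trim34a* measured 10.5, 9.48, 9.61, 9.97 and 10.4 CPM in the NOR mice and 3.00 to 4.63 CPM in the NOD mice (median 3.74), a log2 difference of −1.39 ± 0.09. *Trim34b* measured 0.103, 0.0771, 0.0571, 0.152 and 0.0845 CPM in the NOR mice and 2.11 to 3.12 CPM in the NOD mice (median 2.75), a log2 difference of 4.8 ± 0.19. Neither gene overlapped between the strains, and the pooled ratio of NOD to NOR for *Trim34b* was 27.4 (95% counting interval 21.5 to 35.4, from 3739 and 67 counts). *Trim34a* took a median of 99.1% of the pair's counts in NOR libraries (97.1% to 100%), 58.2% in NOD libraries of batch 1 (38.7% to 69.7%) and 76.3% in those of batch 2 (64.1% to 83.1%). Summed, the pair remained lower in NOD, at 5.30 to 7.58 CPM against 9.55 to 10.6 CPM in NOR, with a log2 difference of −0.63 ± 0.07. The higher *Trim34b* of NOD thus fell short of the higher *Trim34a* of NOR.

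**Figure D1:**
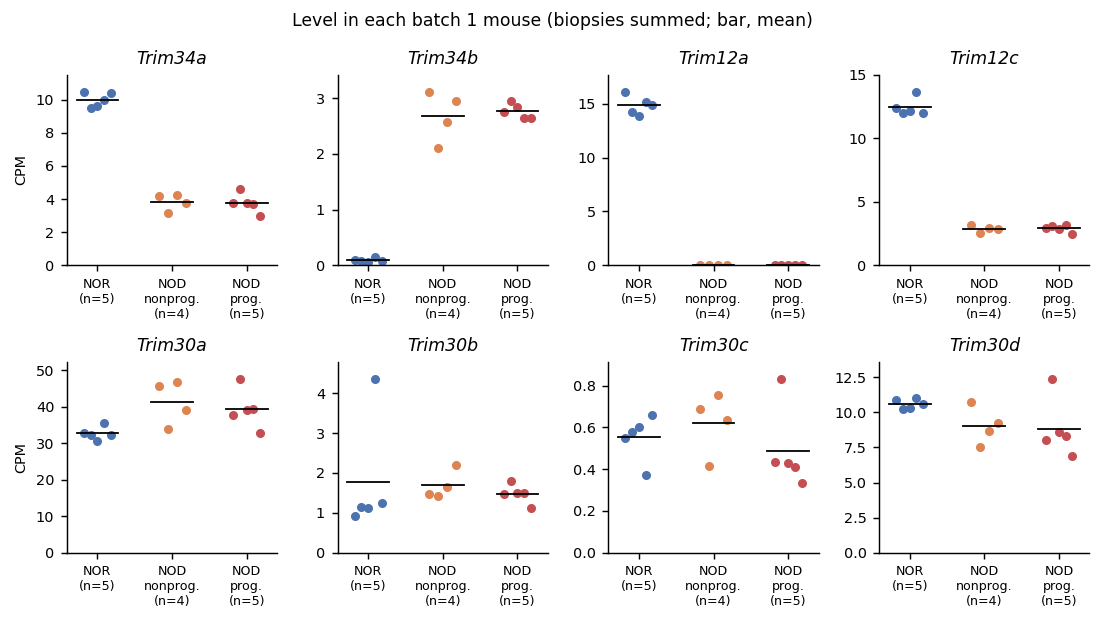
Level of each gene in CPM (vertical axis) in the 14 batch 1 mice, grouped as NOR, NOD nonprogressors and NOD progressors (points, mice; bars, group means). *Trim34a*, *Trim12a* and *Trim12c* lay higher in all 5 NOR mice and *Trim34b* in all 9 NOD mice, whereas the lower row of *Trim30* copies overlapped.

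The *Trim30* copies had no such split. *Trim30a*, the most abundant member, measured 32.9, 32.25, 30.5, 35.65 and 32.3 CPM in the NOR mice and 32.8 to 47.6 CPM in the NOD mice (median 39.2), a log2 difference of 0.30 ± 0.09. *Trim30d* measured 10.2 to 11.0 CPM in NOR and 6.89 to 12.4 CPM in NOD, a log2 difference of −0.25 ± 0.11. *Trim30c* (0.374 to 0.659 CPM in NOR and 0.333 to 0.831 CPM in NOD) and *Trim30b* (0.926 to 4.35 and 1.13 to 2.20 CPM) were low in both strains, with log2 differences of −0.01 ± 0.22 and −0.18 ± 0.31. The highest *Trim30b* value belonged to NOR mouse 4, and without that mouse its log2 difference was 0.49. The summed *Trim30* copies measured 42.6 to 51.4 CPM in NOR and 41.1 to 62.6 CPM in NOD, a log2 difference of 0.17 ± 0.09. At 6 weeks of age alone the differences were −10.4 for *Trim12a*, −2.27 for *Trim12c*, −1.22 for *Trim34a*, 5.03 for *Trim34b*, 0.49 for *Trim30a*, 0.69 for *Trim30b*, 0.53 for *Trim30c* and −0.08 for *Trim30d*.

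**Figure D2:**
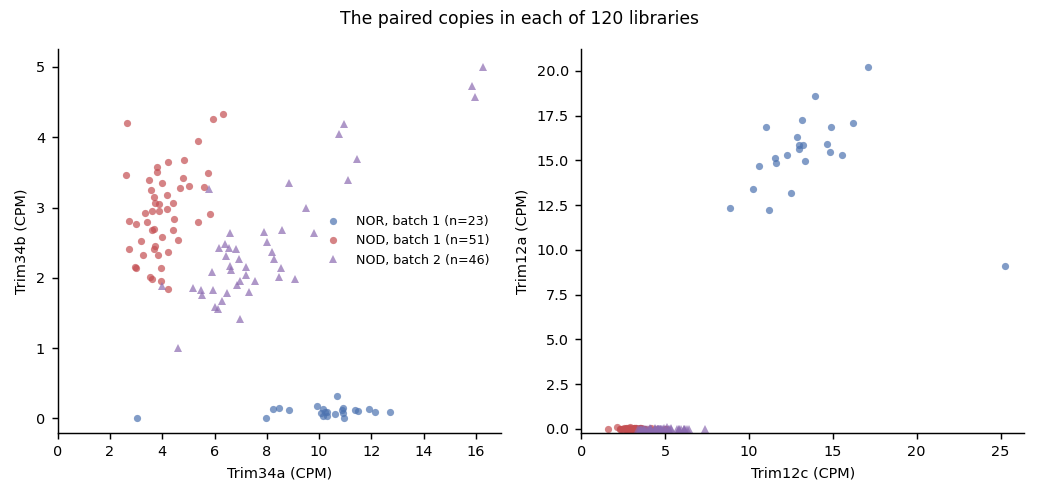
CPM of *Trim34b* against *Trim34a* (left) and of *Trim12a* against *Trim12c* (right) in each of the 120 libraries, coloured by strain and batch. NOR libraries lay along the *Trim34a* axis and rose along the *Trim12a* axis, and NOD libraries of both batches held *Trim34b* and had *Trim12a* near 0. The NOR point apart from the others (*Trim34a* 3.03, *Trim12c* 25.2 CPM) is the 18-week library of mouse 5, with few counts.

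Ordered by CPM per kilobase, the cluster had a different profile in each strain. In NOR the median over mice was 8.56 for *Trim30a*, 3.99 for *Trim12a*, 3.85 for *Trim34a*, 3.24 for *Trim12c*, 3.23 for *Trim30d*, 0.337 for *Trim30c*, 0.27 for *Trim30b* and 0.0463 for *Trim34b*. In NOD it was 10.4 for *Trim30a*, 2.62 for *Trim30d*, 1.5 for *Trim34b*, 1.44 for *Trim34a*, 0.789 for *Trim12c*, 0.346 for *Trim30b*, 0.254 for *Trim30c* and 0.00406 for *Trim12a*. The ranges over mice overlapped between *Trim12a* and *Trim34a*, between *Trim12c* and *Trim30d* and between *Trim30c* and *Trim30b* in NOR, and between *Trim34b* and *Trim34a* and between *Trim30b* and *Trim30c* in NOD, so those neighbours in the order were not separated. *Trim30a* ranked first in both strains.

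Most genes around the cluster differed less. *Trim6*, which precedes *Trim34a*, was above NOR in all NOD mice (2.08 to 2.67 against 1.41 to 1.59 CPM, log2 difference 0.66 ± 0.07). *Trim5*, which lies inside the cluster, was below it (2.93 to 3.78 against 4.14 to 4.89 CPM, −0.41 ± 0.07). The processed pseudogene *Gm16464*, inside *Trim30d*, was higher in NOD (1.58 to 2.18 against 0.895 to 1.13 CPM, 0.82 ± 0.10). The next genes outward, *Olfr648*, *Olfr639* and *Hbb-bs* on the *Trim34a* side and *Gm4887*, *Gm5900*, *Olfr692* and *Fam160a2* on the *Trim30d* side, overlapped between the strains. Within 1 Mb of the cluster, 4 of 17 other genes tested (23.5%) had mice that did not overlap, beside 4.96% of all genes tested. Of the 17, 1 differed by more than 1 on the log2 scale, beside 3.02% of all genes tested.

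**Figure D3:**
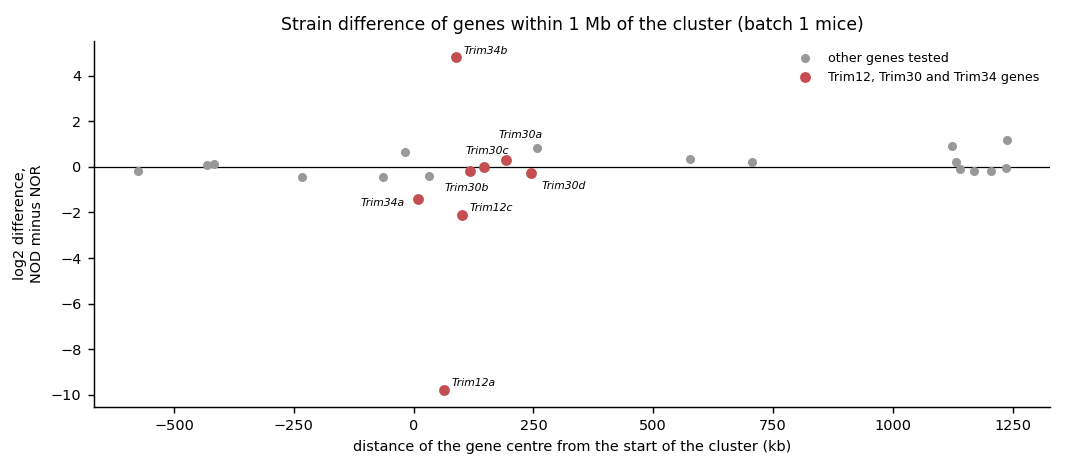
Log2 difference between NOD and NOR (vertical axis) of each gene tested within 1 Mb of the cluster, by the distance in kb of its centre from the start of the cluster (horizontal axis). The members (red) range from −9.78 for *Trim12a* to 4.8 for *Trim34b*, and the other genes (grey) lie between −0.43 and 1.19.

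Interferon-stimulated genes and cell markers were read beside the strain values, since many of these TRIM genes respond to interferon. Over a list of 22 such genes the median log2 difference between NOD and NOR was 0.46, beside −0.0016 over all genes tested, and all but 1 were above 0. The exception, *Xaf1*, had a log2 difference of −1.12 ± 0.11. The 8 macrophage markers had a median log2 difference of −0.06 and the 6 T cell markers one of −0.20. Of these, 3 macrophage markers and 1 T cell marker were lower in NOD past the threshold, and none was higher (all genes, 5.11% lower and 3.87% higher). Median log2 differences were 4.02 for epidermis, 0.80 for B cell, −0.92 for neutrophil and −0.45 for adipocyte markers, and none of these markers passed. The summed level of the interferon-stimulated list had a median of 295.4 CPM in NOR and 346.6 CPM in NOD libraries of batch 1, and their part in the strain values was not tested.

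The second set of comparisons asked how the cluster changed over time within NOD. The genes were chosen by NOD against NOR and not by time, but they and the gene lists were chosen with earlier results of these data known. By the paper's methods the 6-week INs were the first removed, and later INs followed repeated removal and replacement. Age, time in place and repeated surgery therefore cannot be told apart in these comparisons. In nonprogressors *Trim30a*, *Trim30c*, *Trim30d*, *Trim34a* and *Trim34b* fell from 6 weeks to the later ages, and in progressors *Trim30a*, *Trim30c* and *Trim30d* fell. *Trim12a* had too few counts in NOD to be tested, which left 7 members.

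In nonprogressors of batch 2, *Trim30a* at 6 weeks had a lowest value of 60.2, a median of 91.0 and a highest of 158.3 CPM in 7 mice. At 14 weeks it measured 48.8, 36.8, 44.7, 35.0, 42.6 and 38.7 CPM, so that the ages did not overlap. In batch 1 the 6-week values were 82.7, 41.6, 65.2 and 46.9 CPM and the 14-week values 40.7, 32.6, 36.4 and 41.7 CPM. The batch 1 ages overlapped only through mouse 2, the lowest at 6 weeks, and mouse 4, the highest at 14 weeks. Over both batches and all later ages the log2 difference (later minus 6 weeks) was −0.80 ± 0.15 (edgeR, adjusted p = 0.00029).

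The other *Trim30* and *Trim34* copies went the same way in nonprogressors. *Trim30d* fell by 0.86 ± 0.15 on the log2 scale (edgeR, adjusted p = 0.00019), from 16.9 to 40.0 CPM at 6 weeks to 8.68 to 12.95 CPM at 14 weeks in batch 2, again without overlap. *Trim30c*, a low copy, fell by 1.39 ± 0.29 (edgeR, adjusted p = 0.0009), from 1.79 to 3.30 CPM to 0.236 to 0.749 CPM in batch 2. *Trim34a* fell by 0.52 ± 0.13 (edgeR, adjusted p = 0.0044) and *Trim34b* by 0.51 ± 0.16 (edgeR, adjusted p = 0.02). *Trim30b* differed by −0.20 ± 0.28 and *Trim12c* by −0.09 ± 0.11, with adjusted p of 0.65 and 0.57 (edgeR). The 5 of 7 members that fell compare with 14.2% of the 21138 genes tested, and the median log2 difference was −0.52 over the members and −0.03 over all genes.

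Without mouse 1, only *Trim30a*, *Trim30c* and *Trim30d* remained past the threshold, 3 of 7. Within batch 1 alone, 2 members fell, *Trim30a* (−0.57 ± 0.16, edgeR adjusted p = 0.028) and *Trim30d* (−0.62 ± 0.18, edgeR adjusted p = 0.029), beside 6.61% of genes. Within batch 2, from 6 to 14 weeks, all 7 fell, beside 17.3% of genes, with *Trim30c* at −2.0 ± 0.25, *Trim30d* at −1.32 ± 0.17, *Trim30a* at −1.19 ± 0.18 and *Trim12c* at −0.32 ± 0.11. Leaving out the 6-week library of mouse 5, the highest for *Trim30a*, left 5 of 7.

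A test over all 5 ages called 6 of 7 members, all but *Trim12c* (edgeR, adjusted p = 0.091), beside 34.7% of genes. It called *Trim30b* as well (edgeR, adjusted p = 0.0069). *Trim30b* was lower than at 6 weeks by 0.75 ± 0.27 at 14 weeks (edgeR, adjusted p = 0.039) and differed by 0.90 ± 0.40 at 22 weeks (edgeR, adjusted p = 0.10), where 1 of the 4 libraries held 9.52 CPM and the others 1.12 to 3.16 CPM. Within batch 1 this test called none of the 7 (edgeR; 3 with an unadjusted p under 0.05).

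**Figure D4:**
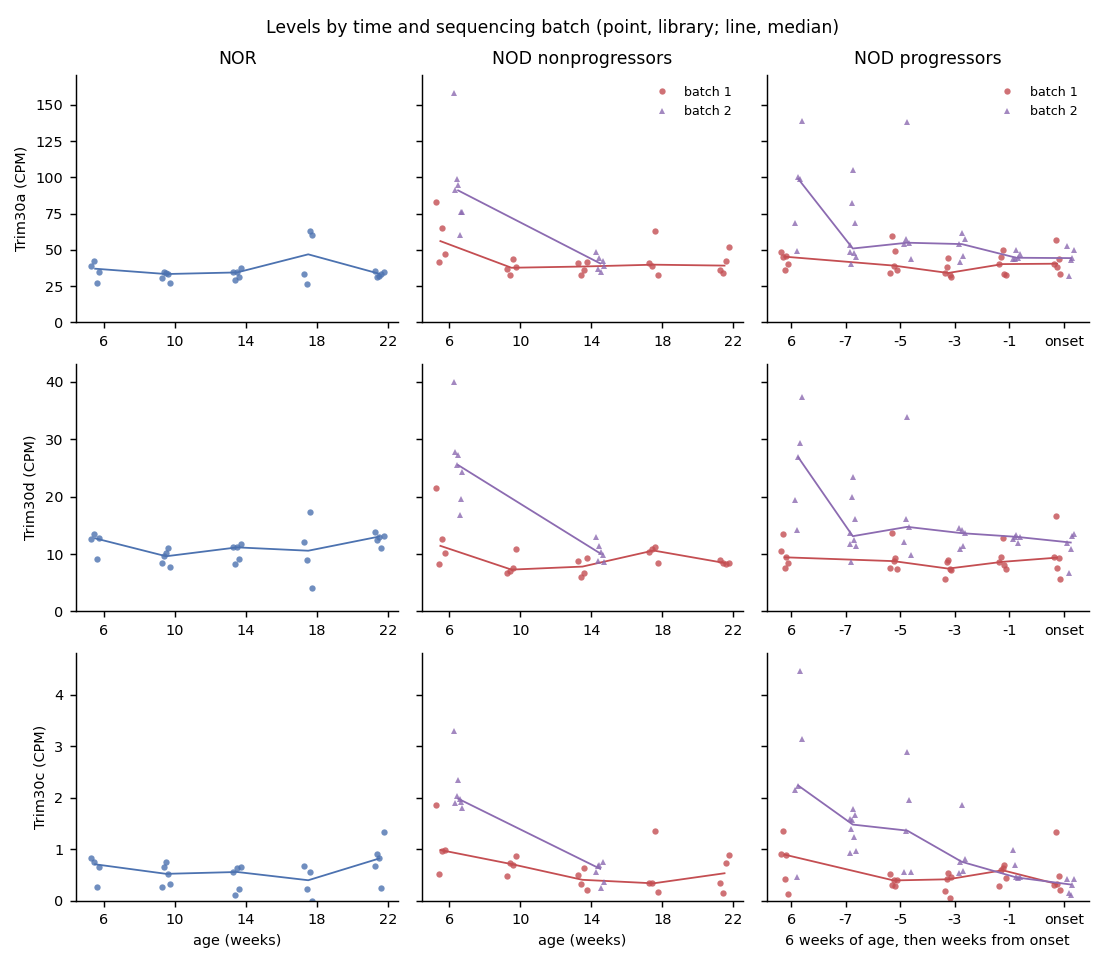
CPM of *Trim30a*, *Trim30d* and *Trim30c* (rows) by age in NOR and nonprogressors and by time in progressors (columns; the first progressor position is 6 weeks of age, the others weeks from onset). Points are libraries and lines medians. Batch 2 NOD medians of *Trim30a* dropped from 91.0 and 99.0 CPM at 6 weeks to 40.7 and 44.4 CPM at the last time, those of batch 1 went from 56.1 and 45.3 to 39.2 and 40.5 CPM (nonprogressors first), and NOR medians, all of batch 1, lay between 33.35 and 46.95 CPM.

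In progressors 3 members fell over both batches and none within batch 1. At 6 weeks *Trim30a* measured 68.7, 49.0, 100.2, 99.0 and 138.9 CPM in batch 2 and 48.8, 45.3, 36.4, 45.6 and 40.5 CPM in batch 1. At onset the values were 52.4, 32.1, 42.9, 44.4 and 49.9 CPM in batch 2 and 40.5, 56.7, 38.3, 43.9 and 33.3 CPM in batch 1. All 5 batch 2 mice and 3 of 5 batch 1 mice were higher at 6 weeks than at their own onset, and the ranges of these times overlapped in both batches. Over both batches *Trim30a* fell by 0.45 ± 0.14 on the log2 scale (edgeR, adjusted p = 0.0067), *Trim30c* by 1.15 ± 0.29 (edgeR, adjusted p = 0.0016) and *Trim30d* by 0.56 ± 0.15 (edgeR, adjusted p = 0.0022).

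The remaining progressor members did not pass. *Trim34a* differed by −0.30 ± 0.13 (edgeR, adjusted p = 0.065), *Trim34b* by −0.25 ± 0.14, *Trim30b* by −0.20 ± 0.18 and *Trim12c* by 0.09 ± 0.10. The 3 of 7 members that fell compare with 18.5% of the 21279 genes tested, and the median log2 difference was −0.30 over the members and 0.01 over all genes. Without the library of mouse 8 at 5 weeks before onset, in which *Trim30a* reached 138.5 CPM, *Trim34a* also passed, at −0.33, and 4 of 7 fell.

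The steps of the change were read against 6 weeks at each progressor time. *Trim30a* differed by −0.33 ± 0.20 at 7 weeks before onset and by −0.22 ± 0.18 at 5 weeks before, neither past the threshold. It was lower by 0.57 ± 0.18 at 3 weeks before, by 0.58 ± 0.18 at 1 week before and by 0.57 ± 0.18 at onset (edgeR, adjusted p = 0.016, 0.013 and 0.011). *Trim30c* had log2 differences of −0.53 ± 0.44, −0.84 ± 0.40, −1.36 ± 0.41, −1.35 ± 0.42 and −1.65 ± 0.43 at the same 5 times, of which the last 3 passed. The libraries at 7 weeks before onset were all in batch 2, whereas the 6-week baseline held both batches. Batch 2 medians of *Trim30a* were 98.97 CPM at 6 weeks, 50.97 CPM at 7 weeks before onset and 54.96 CPM at 5 weeks before. Within batch 2, without the mice of batch 1, the difference at 7 weeks before was −0.47 ± 0.29 (edgeR, adjusted p = 0.31). The value at 5 weeks before included the mouse 8 library at 138.5 CPM. When the fall of *Trim30a* began was not tested. A test over the 6 times called the same 3 members, *Trim30a*, *Trim30c* and *Trim30d*, beside 35.6% of genes.

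The fit within batch 2 progressors left out the batch 2 libraries of mice 1 to 4, whose other biopsies were in batch 1. In the remaining 5 mice the 3 members fell by 0.75 ± 0.20 (*Trim30a*), 1.66 ± 0.34 (*Trim30c*) and 0.89 ± 0.20 (*Trim30d*), beside 15.8% of genes. *Trim30c* measured 2.14, 0.459, 2.24, 4.46 and 3.14 CPM at 6 weeks and 0.427, 0.147, 0.104, 0.312 and 0.41 CPM at onset in these mice, a log2 difference of −3.16 ± 0.54 (edgeR, adjusted p = 7.8e-05). The mouse with the lowest 6-week value, mouse 7, stood just above the highest onset value. Within batch 1 none of the 7 passed (edgeR; 1 with an unadjusted p under 0.05), beside 13.4% of genes, and *Trim30a* differed by −0.09 ± 0.12. The difference between the batches in the change after 6 weeks was tested itself, a comparison added after these values were seen. None of the 7 passed in edgeR (4 with an unadjusted p under 0.05), 1 passed in DESeq2 (*Trim30a*, −0.72), and 4.66% of all genes did so in edgeR. The edgeR value for *Trim30a* was −0.71 ± 0.25 with an adjusted p of 0.077, and for *Trim30d* −0.79 ± 0.29 with one of 0.093.

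**Figure D5:**
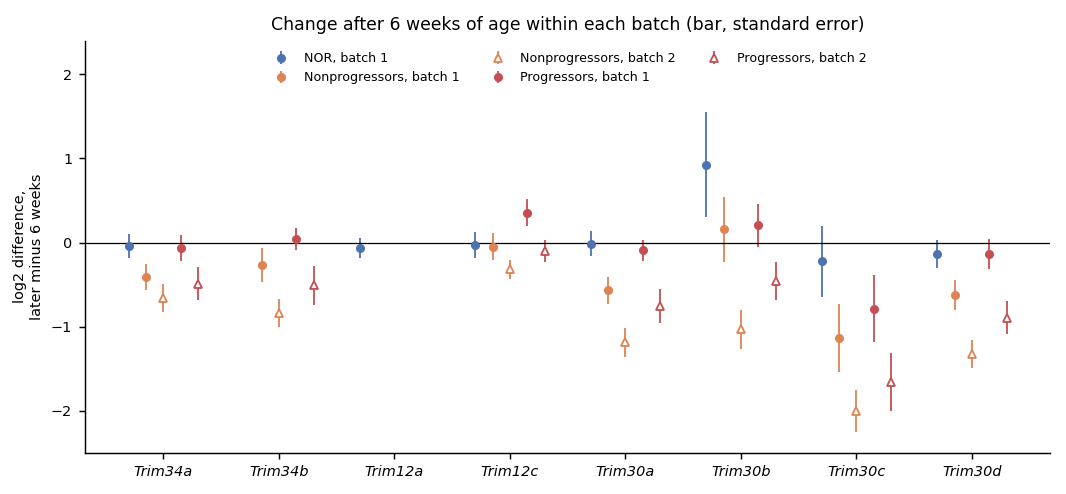
Log2 difference between later samples and 6-week samples (vertical axis) for each gene within NOR, nonprogressors and progressors of each batch, with bars of 1 standard error (filled symbols, batch 1; open symbols, batch 2). Batch 2 values lie below batch 1 values for *Trim30a*, *Trim30c* and *Trim30d* in both NOD groups, and NOR values of *Trim30a*, *Trim30d* and *Trim34a* lie near 0. The later times differ between the batches. Nonprogressors were sampled at 10, 14, 18 and 22 weeks in batch 1 and at 14 weeks in batch 2. Only batch 2 progressors include 7 weeks before onset.

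Levels were also compared between the batches themselves, in nonprogressors at 6 and 14 weeks, where different mice were sequenced in each batch. *Trim34a* was higher in batch 2 by 0.89 ± 0.14, *Trim30c* by 0.74 ± 0.26, *Trim30b* by 0.71 ± 0.22, *Trim30d* by 0.71 ± 0.18, *Trim12c* by 0.68 ± 0.09 and *Trim30a* by 0.39 ± 0.16 on the log2 scale, and all 6 passed (edgeR; adjusted p = 0.047 for *Trim30a*, whose call was lost with RLE scaling and with no low-count filter). *Trim34b* differed by −0.31 ± 0.16 (edgeR, adjusted p = 0.12). The 6 members compare with 23.9% of 21050 genes that were higher in batch 2. Without batch 1 mouse 2, 3 members were higher and *Trim34b* was lower, and without mouse 3 or mouse 4, 4 were higher. In this comparison mice and instruments differed together between the batches and cannot be told apart.

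NOR mice served as the control for age, and no member tested passed the threshold from 6 weeks to the later ages there. *Trim34b* had too few counts in NOR to be tested, and of the other 7 members 6 lay below 0. *Trim30a* measured 39.1, 42.6, 27.0 and 35.0 CPM at 6 weeks and 29.0 to 37.45 CPM at 14 weeks. Its log2 difference over all later ages was −0.01 ± 0.15, and those of *Trim30d*, *Trim30c* and *Trim34a* were −0.13 ± 0.17, −0.22 ± 0.42 and −0.04 ± 0.14. *Trim12a*, measurable in NOR only, differed by −0.07 ± 0.12 and *Trim12c* by −0.03 ± 0.16. None of 7 members passed (edgeR; 0 with an unadjusted p under 0.05; 0 in DESeq2), beside 0.0357% of all genes.

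Over the 5 NOR ages 1 of 7 members passed, *Trim30b* (edgeR, adjusted p = 0.0095), beside 8.24% of genes, and the call rested on 1 library. The 18-week library of mouse 4 held 21.85 CPM (619 counts), and the other 3 libraries of that age held 1.42, 0.675 and 0 CPM. Summed neutrophil markers measured 82.8 CPM in that library and at most 2.39 CPM in the others of that age, and summed macrophage markers 10311 CPM against at most 5350 CPM. The part of those cells in the *Trim30b* value was not tested. The call was lost without that library, without mouse 4, without mouse 2, and with the mouse as a block (edgeR, adjusted p = 0.16).

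Whether the change with age differed between the strains was tested in batch 1 as an interaction between strain and age in nonprogressors and NOR. None of 8 members passed (edgeR; 1 with an unadjusted p under 0.05; 0 in DESeq2), and the share over all genes was 0% in edgeR. The difference in change was −0.54 ± 0.23 for *Trim30a* (edgeR, adjusted p = 0.80), −0.47 ± 0.25 for *Trim30d* and −0.34 ± 0.21 for *Trim34a*. A fall in nonprogressors and no call in NOR were therefore not shown to differ.

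Outcome was compared at 6 weeks of age, before onset, in 10 progressors and 11 nonprogressors. None of 7 members passed (edgeR; 0 with an unadjusted p under 0.05; 0 in DESeq2), and 0% of the 19082 genes tested passed. *Trim30a* differed by −0.22 ± 0.18, *Trim30d* by −0.19 ± 0.19, *Trim30c* by −0.08 ± 0.32, *Trim34a* by −0.10 ± 0.17 and *Trim12c* by −0.16 ± 0.11 (progressors minus nonprogressors, log2). Within batch 1 the *Trim30a* difference was −0.48 ± 0.19 (edgeR, adjusted p = 0.73), and within batch 2 it was −0.04 ± 0.26.

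Genes of the pathways around the cluster were followed in the same fits. All 22 interferon-stimulated genes fell after 6 weeks in nonprogressors and 21 of 22 in progressors, with median log2 differences of −1.5 and −1.13. Of all genes, 14.2% and 18.5% fell. The leading genes were *Ifit1*, which blocks translation of viral RNA (−2.32 ± 0.29 and −1.89 ± 0.32), and *Oas2*, a sensor of double-stranded RNA (−1.54 ± 0.20 and −1.20 ± 0.23). *Irf7*, the master regulator of interferon-α genes, fell by 1.38 ± 0.26 in progressors. Within batch 1, 4 of 22 fell in progressors (median −0.40), a share near the 13.4% of all genes. In batch 1 nonprogressors 19 of 22 fell (median −1.20), beside 6.61% of all genes. Within batch 2 all 22 fell in progressors and in nonprogressors (medians −1.67 and −1.999), beside 15.8% and 17.3% of all genes. The difference between batches was not tested for the list. None of 22 passed in NOR (edgeR; median −0.31), beside 0.0357% of all genes, and all 22 lay below 0 there.

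Among 12 interferon signalling genes, *Irf9* and *Stat2*, partners in the complex that binds interferon-response elements, fell in nonprogressors (−0.53 ± 0.08 and −0.73 ± 0.13) and in progressors (−0.39 ± 0.08 and −0.55 ± 0.13). In all, 3 fell and 1 rose in nonprogressors, and 3 fell and 3 rose in progressors, where the kinase *Jak1* (−0.18 ± 0.06) and the receptor chain *Ifnar1* (0.12 ± 0.04) moved in opposite directions. Of 16 genes of the Toll-like receptor, NF-κB and NLRP3 pathway that Trim30a restrains, 2 rose in nonprogressors. They were *Nlrp3* (0.66 ± 0.20) and the cytokine *Il1b* (1.19 ± 0.42). None fell, where 9.88% of all genes rose and 14.2% fell, so the rises were near the share of all genes. In progressors 5 rose, among them the inflammasome genes *Pycard* (0.26 ± 0.07) and *Casp1* (0.31 ± 0.10). The adaptor *Myd88* fell (−0.30 ± 0.06), where 18.0% of all genes rose and 18.5% fell. Within batch 1, 2 of the 16 rose and none fell in nonprogressors (all genes, 7.15% and 6.61%). In batch 1 progressors 5 rose and 2 fell (13.7% and 13.4%). Within batch 2, none rose and 3 fell in nonprogressors (16.8% and 17.3%). In batch 2 progressors 1 rose and 2 fell (14.2% and 15.8%). Over both batches, of 21 other TRIM genes tested, 2 rose and 3 fell in nonprogressors. In progressors 3 rose and 5 fell, and in both groups the shares were near those of all genes. *Trim59* fell in both (−0.82 ± 0.11 and −0.53 ± 0.16), whereas the cluster's neighbour *Trim5* differed by 0.02 ± 0.10 in progressors. The medians of the 3 lists lay between −0.06 and 0.16 in both groups.

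The cell composition of the INs moved over the same interval. All 5 fibroblast markers fell in nonprogressors (median −0.73) and in progressors (median −1.17), and within each batch of progressors. Their summed level had a median of 52447 CPM at 6 weeks and 19705 CPM later in batch 2, and 50378 and 25831 CPM in batch 1. None of 8 macrophage markers passed in either group (edgeR), with medians of −0.01 and 0.14. Of the 3 general leukocyte markers 2 rose in progressors and none passed in nonprogressors. Of 6 T cell markers 3 rose in progressors, and of 4 B cell markers 3 rose in progressors and 1 in nonprogressors. Of 5 dendritic cell markers 2 fell in nonprogressors and none passed in progressors. Of 4 epidermis markers 3 fell in nonprogressors and 1 in progressors, and of 4 endothelial markers 1 and 2 fell. Of all genes, 9.88% rose and 14.2% fell in nonprogressors, and 18.0% rose and 18.5% fell in progressors. In batch 1 nonprogressors all 4 epidermis markers fell (median −4.77) and 2 of 8 macrophage markers rose (all genes, 6.61% fell and 7.15% rose). In batch 2 nonprogressors 1 of 3 epidermis markers tested rose and 1 fell (median 3.31). Within batch 2 all 4 adipocyte markers rose in progressors (median 5.14) and nonprogressors (median 5.83). All 4 skeletal muscle markers rose and 3 of 8 macrophage markers fell in batch 2 nonprogressors (medians 4.51 and −0.23). Of all genes in batch 2, 16.8% rose and 17.3% fell in nonprogressors, and 14.2% rose and 15.8% fell in progressors. Within batch 1 all 4 adipocyte markers lay below 0 in progressors (median −1.56) and nonprogressors (median −1.35). The 4 skeletal muscle markers did so too (medians −2.34 and −1.90), and none of either list passed. T cell markers rose in batch 2 progressors (3 of 6), and none passed in those of batch 1 (median −0.07). No marker of these lists was at 0 throughout, and the part of cell composition in the change of the TRIM genes was not tested.

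The genes whose levels ran most like each member were listed over the 97 NOD libraries, after the mean of each batch was subtracted. These libraries share depth and cell composition within a biopsy, and the correlations of log2 CPM are a description with no test. *Trim30a* ran closest to *Ifih1*, a sensor of double-stranded RNA (r = 0.947), followed by *Sp100*, *Eif2ak2*, *Trim30d* (r = 0.935) and *Samd9l*. *Trim30d* ran closest to *Trim30a*, and *Trim34a* to *Ifih1* (r = 0.914) and *Parp14* (r = 0.90). *Trim34b* had *Parp14* first (r = 0.803) and *Trim30a* second (r = 0.785). *Trim30c* was instead closest to genes of the *Ifi200* family, *Ifi211* (r = 0.87), *Ifi204*, *Mndal* and *Ifi203*, together with *Slfn1*.

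*Trim30b* and *Trim12c* had weaker partners. *Trim30b* was closest to *Slfn4* (r = 0.686) and *Trim30a* (r = 0.636), and also to the neutrophil and monocyte receptor *Fpr2* (r = 0.617). *Trim12c* was closest to *Herc6* (r = 0.611). Against the 22 interferon-stimulated genes the median r was 0.891 for *Trim30a*, 0.833 for *Trim30d*, 0.825 for *Trim34a*, 0.752 for *Trim30c*, 0.691 for *Trim34b*, 0.451 for *Trim30b* and 0.388 for *Trim12c*, and between −0.03 and −0.01 over all genes. Against the 8 macrophage markers the medians for the 7 members ran from −0.07 to 0.14.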

How the data were processed

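Bulk RNA of 120 immunological niche biopsies was ribosomal-RNA depleted and sequenced on different NovaSeq instruments in 2 batches. The authors deposited expected counts per gene, 1 table per batch, and their processing notes name cutadapt, FastQC, STAR, RSEM, MultiQC and GRCm38. Read length and strandedness are not given in the sources used here, and RSEM divides reads shared by copies. No column lacked a sample. The tables were joined on 55487 genes, and the expected counts were rounded. Genes were filtered with filterByExpr, scaled by TMM and tested with edgeR 4.0.16 (quasi-likelihood, Benjamini-Hochberg, adjusted p threshold 0.05), with a batch term where both batches entered, in R 4.3.3. DESeq2 1.42.0 was an alternative. Since the biopsies of a mouse are repeated, the strain comparison used sums per mouse, and the age and time tests treated biopsies as samples, with the mouse as a block as an alternative.

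The members and gene lists were chosen with earlier results of these data known. All members are named, neighbours are the 4 genes tested on each side and those inside the cluster, like genes are the 5 with the highest Pearson r of log2(CPM + 1), and list genes are those past the threshold with the lowest p. Samples labelled by days were left out of the tests. Mouse numbers in the titles pair biopsies of the same animal. After group means were removed, biopsies of the same mouse had a mean correlation of −0.0206 in NOR, 0.00505 in nonprogressors and −0.0155 in progressors over 2000 genes. All 239 replicate pairs differed by more than counting error (chi-square over its degrees of freedom at least 11.97). On simulated data in which 200 genes had a log2 change of 1, the progressor test over 21279 genes recovered 94% and the strain test over 23387 genes 54.5%. Coordinates of genes are from GENCODE M21, and RefSeq supplied the promoters.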

Additional observations from a re-analysis of the deposited data

Results flagged for a closer look

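Among groups of 4 to 10 libraries, 18 of 180 had a library that stood apart from the rest of its group by Dixon's test, where chance gives about 1 in 20 groups. Of these, 5 were *Trim12a* groups in which a single library had 1 to 3 counts and the others 0, so that the gap filled the whole range by construction. The library of progressor mouse 8 at 5 weeks before onset (batch 2) stood highest for *Trim30a* (138 CPM), *Trim30d* (34 CPM), *Trim34a* (16.3 CPM) and *Trim34b* (5 CPM). In it the summed interferon-stimulated genes measured 1310 CPM (254 to 290.2 in the others of that group) and the T cell markers 66.7 CPM (8.72 to 19.2). Their part in these values was not tested. The same mouse stood highest at 3 weeks before onset for *Trim30c* (1.86 CPM). The 6-week library of nonprogressor mouse 5 (batch 2) stood highest for *Trim30a* (158 CPM) and *Trim30c* (3.3 CPM), with summed interferon-stimulated genes of 1671 CPM against 393.2 to 922.4 CPM in the others.

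*Trim30b* stood highest in the 18-week library of NOR mouse 4 (21.8 CPM) and lowest at 10 weeks in nonprogressor mouse 1 (1.04 CPM). *Trim30c* stood highest at onset in progressor mouse 2 (1.34 CPM) and at 18 weeks in nonprogressor mouse 3 (1.36 CPM), both in batch 1. *Trim30d* stood highest at 5 weeks before onset in progressor mouse 2 of batch 1 (13.7 CPM), and *Trim34b* at 7 weeks before onset in progressor mouse 6 (3.69 CPM). *Trim12a*, at 0 to 4 counts in every NOD library, stood highest in progressor mouse 3 at 1 week before onset (0.0392 CPM), progressor mouse 6 at onset (0.0213 CPM), nonprogressor mouse 1 at 10 weeks (0.0711 CPM) and 22 weeks (0.0676 CPM), and nonprogressor mouse 2 at 18 weeks (0.0369 CPM).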

How the results depend on the processing

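The number of members past the threshold kept within 1.5 times its value under RLE scaling, no low-count filter and DESeq2, except that DESeq2 called 1 member, not 0, in the difference between batches of the progressor change. Within batch 1 it went to 0 for both progressor tests and for the nonprogressor ages, and to 2 for nonprogressors at 6 weeks against later. Leaving out a mouse gave 3 to 5 for that last comparison and 0 to 1 for the NOR ages. With the mouse as a replicate block, the pairing of biopsies gave 0 for the NOR ages and changed no other count of calls by over 1.5 times. The comparison of batches within progressors, the batch 2 nonprogressor fit and the removal of single libraries (0 for the NOR ages without the 18-week library of NOR mouse 4) were chosen after seeing the data. The cause of these changes was not tested.

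Among the tested comparisons, changes of sign were seen in values that had not passed. They were −0.102 for *Trim12c* within batch 2 progressors, 0.203 for *Trim30b* and 0.0411 for *Trim34b* within batch 1 progressors, 0.155 for *Trim30b* within batch 1 nonprogressors, and 0.182 for *Trim30c* and 0.0221 for *Trim34a* in the outcome comparison within batch 2. In NOR, *Trim30a* was at 0.0174 with the replicate block, and with each mouse left out in turn *Trim30a* ran from −0.1999 to 0.0866, *Trim12c* from −0.1775 to 0.0912 and *Trim34a* from −0.161 to 0.0663. In the interaction, *Trim12c* was at 0.0353 without the 18-week library of NOR mouse 5, and with a replicate number left out in turn it ran from −0.106 to 0.0489 and *Trim12a* from −0.244 to 0.431. In the untested strain values, *Trim30b* (−0.18) was at 0.49 without NOR mouse 4 and at 0.69 at 6 weeks, and *Trim30c* (−0.01), whose sign varied around 0, was at 0.53 at 6 weeks. Low counts limited *Trim12a* in NOD, *Trim34b* in NOR and *Trim30c*.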

Other observations

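Of the nonprogressor INs, 6 carry a day after implantation in place of an age (2 at each of 3 times, batch 1) and entered no test. *Trim30a* measured 57.65 and 60.8 CPM at day 31, 38.3 and 43.4 CPM at day 38, and 39.6 and 39.7 CPM at day 108. *Trim30c* measured 1.12 to 1.34 CPM at day 31, 0.423 to 0.757 CPM at day 38 and 0.788 to 0.796 CPM at day 108. *Trim30d* measured 13.7 to 14.1, 7.30 to 7.57 and 8.17 to 9.87 CPM at those times, and *Trim34a* 5.37 to 5.96, 3.72 to 4.59 and 3.71 to 3.89 CPM.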
